A study of Homo sapiens with 3 samples.

Results

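The trefoil factors TFF1 and TFF3 and 8 further genes known for induction by estrogen (GREB1, PDZK1, MYB, CA12, NRIP1, SERPINA1, SIAH2 and CXCL12) were followed through single cells of CAMA-1 spheroids. The genes were taken by symbol as known estrogen targets, with earlier results of these data known, and all 10 were present among the 22499 genes with a symbol. CAMA-1 is an established estrogen receptor-positive breast cancer line. Its drug-sensitive parental lineage was marked with the yellow fluorescent transgene mVenus, and a resistant lineage, obtained by months of growth in the CDK4/6 inhibitor ribociclib, was marked with the red fluorescent transgene mCherry. Spheroids were begun with 2000 cells, of which 100%, 50% or 0% were sensitive. Every spheroid, controls included, received 1 µM ribociclib for 11 days, so no untreated cells enter any comparison here. The deposited annotation divides the kept cells into 4 populations: the sensitive cells grown alone (sensitive monoculture) and beside resistant cells (sensitive coculture), and the resistant cells grown beside sensitive ones (resistant coculture) and alone (resistant monoculture).

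Estrogen receptor alpha is a transcription factor that, once bound by estradiol, attaches to estrogen response elements in DNA and recruits coactivators to nearby and distant genes. In luminal breast cancer its targets include secreted proteins such as the trefoil factors, enzymes, transport scaffolds, a chemokine and regulators of the receptor itself. TFF1, also called pS2, has long served as a readout of estrogen action, and GREB1 is a cofactor of the receptor as well as its target.

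TFF1 and TFF3 stood apart from the other genes. Both were lowest in sensitive monoculture and higher by more than 1.5-fold in sensitive coculture and in resistant monoculture, and the pair was the most closely correlated among the 10 genes in single cells of every population. CXCL12 was higher in sensitive than in resistant cells of either culture. GREB1, PDZK1, MYB, CA12, NRIP1 and SIAH2 differed by less than 1.5-fold over all cells between any populations compared, and SERPINA1 was close to the detection limit throughout.

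The 4 populations held 3329, 2059, 6292 and 7557 cells in the order above, with a median of 27622, 34056, 30687 and 35443 unique molecular identifiers (UMIs, each marking 1 captured RNA molecule) per cell. At least 2 UMIs of their own transgene were found in 1314, 1127, 3932 and 3446 of these cells. The lineage of the remaining cells was taken as annotated and was not checked. The median mitochondrial percent was 20.9 in sensitive monoculture and 15.2 to 17.3 in the others, and 89.0% of sensitive monoculture cells were annotated as G1 against 49.7% to 55.3% elsewhere. Each condition had 1 library, so conditions have no replicates, no test across samples was possible, and no p-value is given. All intervals are exact and cover counting error only. UMIs were summed over the cells of a population and expressed as CPM, the gene's counts per 1000000 UMIs of that population. The luminal markers EPCAM, KRT8, KRT18, KRT19, GATA3, FOXA1 and ESR1 were present in all populations, with a summed level of 7659 to 9605 CPM. Markers of other cell types were scarce, with basal genes summing to 0.23 to 3.65 CPM (KRT5 at 0 UMIs in sensitive coculture and resistant monoculture, TP63 at 0 in sensitive coculture), fibroblast genes to 2.41 to 3.61 CPM (nearly all COL1A1, with LUM at 0 in every population), leukocyte genes to 0.38 to 1.07 CPM and the endothelial gene VWF to 0.07 to 0.29 CPM. Of the barcodes, 34 to 60 were shared between any 2 libraries, and 7 to 17 barcodes belonged to kept cells in both. Over 1263 coculture barcodes with at least 2 mVenus UMIs, kept or not, the mCherry UMIs corresponded to 7.57% resistant-cell RNA. The 1127 of them that were kept cells, all sensitive, held 0 mCherry UMIs, so this share comes from barcodes that were not kept. Those may hold doublets of both lineages, which cannot be told apart from free RNA here, and the share in kept cells was not measured. Ratios of the trefoil factors and CXCL12 corrected for 7.57% are given below.

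**Figure D1:**
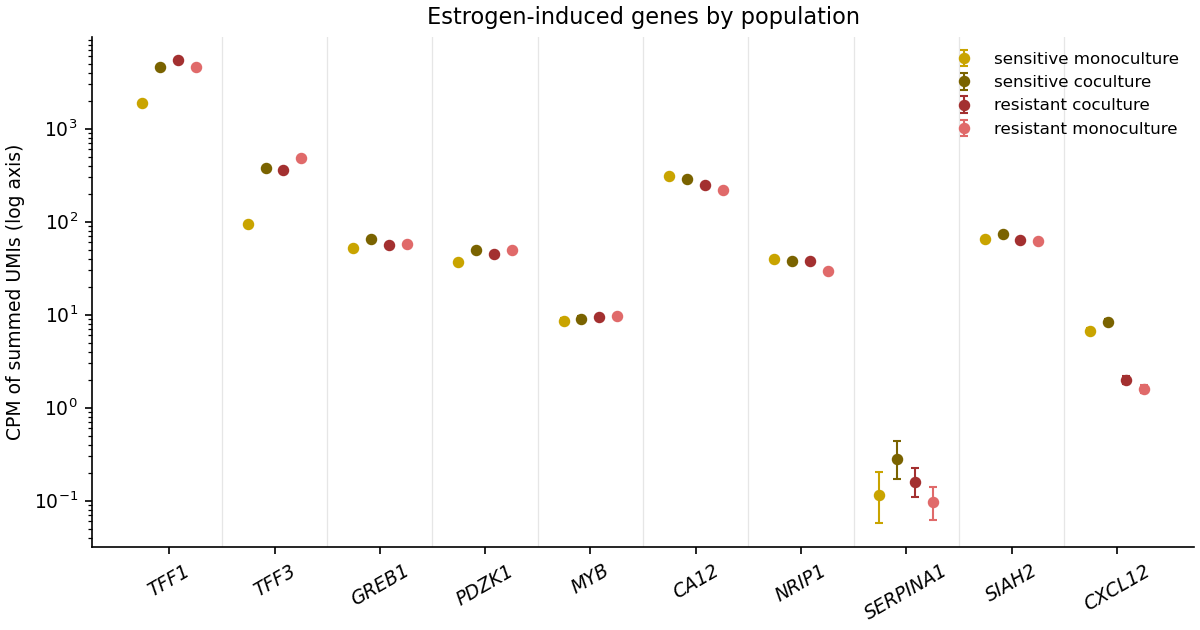
CPM of summed UMIs (log axis) of the 10 genes in the 4 populations, with exact Poisson intervals that are mostly smaller than the points. TFF1 and TFF3 are lowest in sensitive monoculture, at 1873 and 93.3 CPM, and CXCL12 is lower in both resistant populations, at 2.0 and 1.58 CPM, than in both sensitive ones.

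The trefoil factors are small secreted proteins that associate with mucins and protect epithelial surfaces. On GRCh37 with GENCODE annotation, TFF3 lies at chr21:43731777-43735519 and TFF1 at chr21:43782391-43786644, both on the minus strand, 46.9 kb apart, with the family gene TFF2 between them at chr21:43766466-43771106. The level of TFF1 was 1873 CPM (1865 to 1882) in sensitive cells grown alone and 4566 CPM (4551 to 4582) in those of the coculture. Resistant cells had 5462 CPM (5451 to 5472) beside sensitive cells and 4590 CPM (4582 to 4599) alone. Sensitive monoculture was thus alone at the low end, and sensitive coculture lay close to resistant monoculture. TFF3 was at 93.3 CPM (91.4 to 95.3) in sensitive cells alone, at 377 CPM (372 to 381) once cocultured, and at 360 CPM (358 to 363) and 479 CPM (477 to 482) in resistant cells with and without sensitive neighbours. It was again lowest in sensitive monoculture, and here the resistant monoculture was highest.

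Between sensitive cells in coculture and in monoculture, the log2 ratio (with 1 CPM added to each level) was 1.28 for TFF1 and 2.0 for TFF3, or 2.44-fold and 4.04-fold in CPM. Of the 12327 genes with at least 50 UMIs over both populations, 5.13% were higher and 5.91% lower by 1.5-fold or more, and of the 9 members with that many UMIs 2 were higher and 0 lower. TFF1 stood at the 99.4th and TFF3 at the 99.96th percentile of all these ratios. The median over the 9 members was 0.28, beside -0.05 for all genes. Sensitive monoculture differed from coculture in phase as well, so the ratios were taken within each phase. TFF1 was higher in coculture in G1 (1.29), S (1.11) and G2M (1.43), and TFF3 likewise (2.13, 1.73 and 2.15). Corrected for 7.57% resistant-cell RNA, the ratios were 1.26 and 2.01. In cells with a mitochondrial share of at most 20% they were 1.42 and 1.90. In cells thinned to 5000 UMIs they were 1.32 and 2.11.

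The trefoil factors also separated the monocultures. Resistant over sensitive, the log2 ratio was 1.29 for TFF1 (2.45-fold) and 2.35 for TFF3 (5.14-fold). In this comparison 6.66% of 12970 genes were higher and 12.5% lower by 1.5-fold, and of 9 members 2 were higher, both trefoil factors, and 1 was lower, CXCL12. The member median was 0.12, beside -0.07 for all genes. This comparison and the preceding one share the sensitive monoculture library, so its values enter both.

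Resistant cells differed much less between cultures, with 0.669% of 13156 genes higher and 0.0304% lower in coculture by 1.5-fold and 0 of the 10 members past that limit in either direction. The member median was 0.06, beside 0.03 for all genes. The trefoil factors nevertheless went opposite ways. TFF1 had a log2 ratio of 0.25 and TFF3 one of -0.41, the latter at the 0.47th percentile of all genes. Each sign was the same in G1, S and G2M, with TFF1 at 0.23 to 0.27 and TFF3 at -0.42 to -0.37. Within the coculture library, where both lineages shared 1 spheroid preparation and 1 library, the resistant over sensitive ratio was 0.26 for TFF1 and -0.07 for TFF3, or 0.28 and -0.07 after the correction for resistant-cell RNA. There 2.04% of 12774 genes were higher and 4.09% lower by 1.5-fold, and among the 10 members 0 were higher and 1, CXCL12, was lower, with a member median of -0.15 beside 0.00 for all genes. The sign of the TFF3 value turned to 0.10 in S cells and to 0.14 in cells with a mitochondrial share of at most 20%, so TFF3 levels of the cocultured lineages were not told apart.

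**Figure D2:**
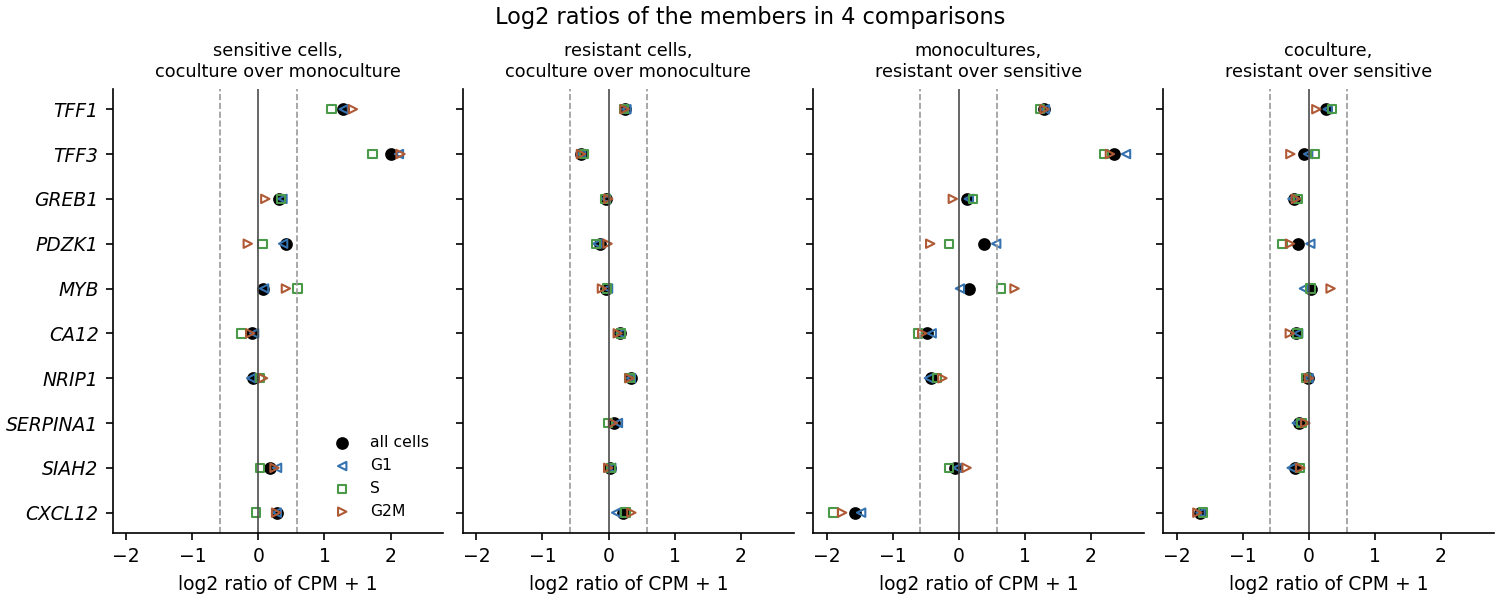
Log2 ratios of CPM + 1 for the 10 genes in 4 comparisons, over all cells (filled points) and within G1, S and G2M (open symbols). Dashed lines mark 1.5-fold, and SERPINA1 is left out where it had under 50 UMIs. TFF1 and TFF3 lie far to the right in every phase for sensitive cells by culture and for the monocultures, and CXCL12 far to the left in both comparisons of resistant with sensitive cells. Between monocultures the G2M and S symbols of PDZK1 fall on the other side of 0 from its G1 symbol.

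TFF1 was unevenly spread over cells. In sensitive monoculture the level per cell ran from 46.7 CPM at the 10th percentile through a median of 603 CPM to 4684 CPM at the 90th, and the 10% of cells richest in TFF1 held 52.6% of its UMIs. The corresponding values in sensitive coculture were 362, 2246 and 11438 CPM with 43.5% of UMIs in the richest 10%, in resistant coculture 477, 3487 and 13043 CPM with 37.9%, and in resistant monoculture 280, 2713 and 11178 CPM with 39.8%. The whole distribution of sensitive monoculture was displaced downward, from the lowest to the highest cells. A share of 7.57% resistant-cell RNA, as estimated above with barcodes that were not kept, would bring 414 CPM of TFF1 and 27.3 CPM of TFF3 into a cocultured sensitive cell, beside 362 and 27.2 CPM measured at the 10th percentile. Its part in the low end of these distributions was not tested.

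When every cell was thinned to 5000 UMIs, a TFF1 UMI was found in 75.9% (74.4% to 77.3%) of sensitive monoculture cells and in 94.5% to 97.3% of cells of the other populations, compared with 94.5% and 99.9% to 100% without thinning. The share with a TFF3 UMI was 25.7% (24.2% to 27.2%) in sensitive monoculture and 60.3%, 61.6% and 63.1% in the other 3, compared with 61.5% and 93.7% in each of the others without thinning. All cells belong to 1 cell line, so no cell type that should lack these genes was at hand to measure background. The variance of thinned counts divided by their mean, which is 1 for counting error alone, was 27.0 to 40.5 for TFF1 and 2.48 to 7.13 for TFF3. For the remaining genes it lay between 0.997 and 1.38.

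**Figure D3:**
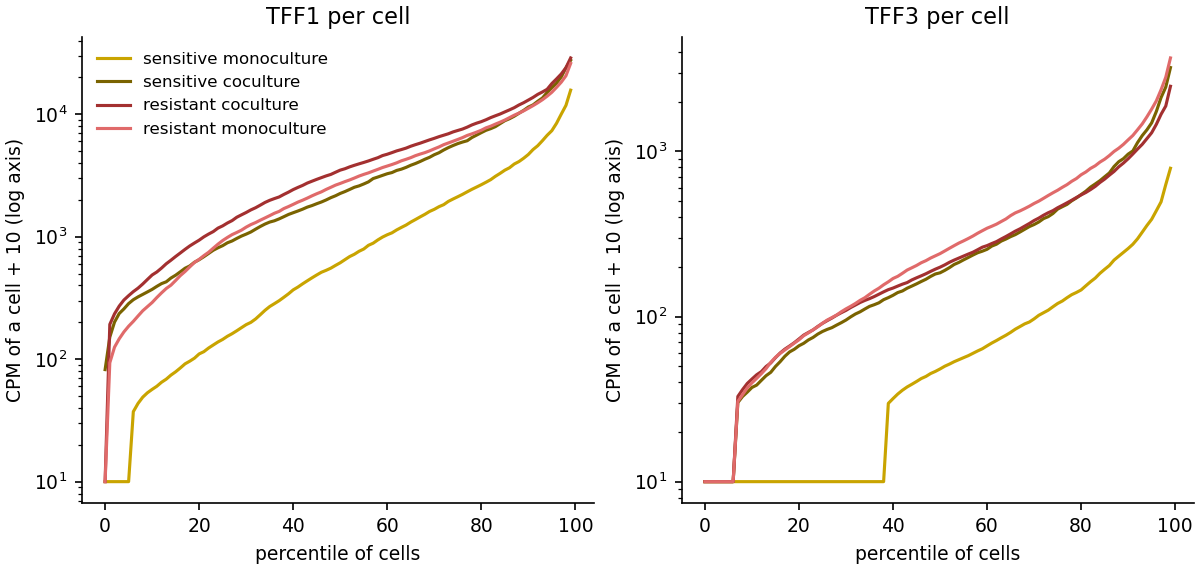
Level of TFF1 (left) and TFF3 (right) in single cells, in CPM plus 10 on a log axis, against the percentile of cells in each population. The sensitive monoculture curve runs below the other 3 wherever those are above 0 UMIs, and flat stretches at the left, shared by all 4 populations for TFF3, are cells with 0 UMIs.

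Each trefoil factor was the nearest gene to the other across cells. Pearson's r of log-normalized values between TFF1 and TFF3 was 0.54 over the 3329 sensitive cells grown alone and 0.61 over the 2059 cocultured ones, 0.66 over the 6292 cocultured resistant cells and 0.69 over the 7557 grown alone, and ranked first among 4504 to 4762 genes of at least 20 CPM in each population. It was 0.54, 0.58, 0.66 and 0.70 in G1 cells alone, and 0.37, 0.50, 0.50 and 0.56 in cells thinned to 5000 UMIs. TFF1 correlated with total UMIs at 0.19, 0.10, 0.03 and 0.04 and with mitochondrial percent at -0.03 to 0.04. TFF3 correlated with total UMIs at -0.04 to 0.06 and with mitochondrial percent at 0.06, 0.19, 0.11 and 0.13. When the cells of a population were ordered by TFF1 and divided into 4 equal groups, TFF3 went from 20.5 CPM in the lowest group to 202 CPM in the highest among sensitive cells alone and from 111 to 798 CPM among cocultured ones. In resistant cells it went from 89.9 to 758 CPM with sensitive neighbours and from 96.0 to 1056 CPM without. PDZK1 also stepped up over the same groups, from 14.2 to 56.0, 33.3 to 61.8, 31.8 to 55.8 and 35.1 to 59.1 CPM. GREB1 rose at each step in resistant coculture (47.6 to 61.4 CPM) and resistant monoculture (50.2 to 62.5). SIAH2 did so in sensitive monoculture (51.7 to 72.7) and resistant coculture (55.5 to 68.2), NRIP1 in resistant monoculture (26.1 to 31.6) and CXCL12 in sensitive coculture (7.60 to 9.31). These genes did not rise at each step in the other populations, and CXCL12 went down in resistant coculture (2.19 to 1.72). CXCL12 had only 592 UMIs in all of sensitive coculture and 399 in resistant coculture. No intervals are given for these groups, and small steps may lie within counting error. MYB went from 6.95 to 11.6 CPM in sensitive coculture, 5.87 to 12.2 in resistant coculture and 6.25 to 12.6 in resistant monoculture, each group above the one before, but had no such order in sensitive monoculture (8.65, 6.87, 7.56 and 11.04 CPM). CA12 did not follow, with 281, 304, 249.7 and 222 CPM in the lowest groups of these populations and 307, 262, 244 and 209 CPM in the highest. In sensitive monoculture the groups also differed in depth and phase. The lowest had a median of 23800 UMIs and 95.6% of cells in G1, the highest 30142 UMIs and 88.2%. The part of depth and phase in these steps was not tested.

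Counting error holds r down in sparse counts, so a low r does not show that genes are unrelated. The r of the trefoil pair was above that of the 44 other pairs. Their highest r was 0.31 for TFF1 and PDZK1 in sensitive monoculture, 0.20 for GREB1 and CA12 in sensitive coculture, and 0.21 and 0.23 for PDZK1 and CA12 in the resistant populations. The lowest r was -0.01, -0.10, -0.02 and -0.04. GREB1 and CA12, a cofactor and an enzyme, correlated at 0.20, 0.20, 0.20 and 0.22, and CA12 was the gene nearest to GREB1 in sensitive coculture and in both resistant populations. CA12 with TFF1 gave 0.09 in sensitive monoculture but -0.07, -0.01 and -0.03 in the other 3. After thinning, GREB1 and CA12 stood at 0.05 to 0.08 and TFF1 and PDZK1 at 0.19 in sensitive monoculture and 0.08 to 0.09 elsewhere. Correlations of this size in sparse counts are given as values and not as relations between the genes. For MYB, SERPINA1 and CXCL12 the highest r with any member was 0.17, between PDZK1 and CXCL12. MYB with TFF1 gave 0.06, 0.09, 0.13 and 0.13, and TFF1 ranked 2nd and 1st among genes of at least 20 CPM for MYB in resistant coculture and monoculture. Besides TFF3, the genes nearest to TFF1 over cells were CTSD and CCND1 in sensitive monoculture (0.44 and 0.43), FXYD3 and AZGP1 in sensitive coculture (0.38 and 0.37), MGP and CD63 in resistant coculture (0.54 and 0.34) and MGP and FXYD3 in resistant monoculture (0.49 and 0.37).

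**Figure D4:**
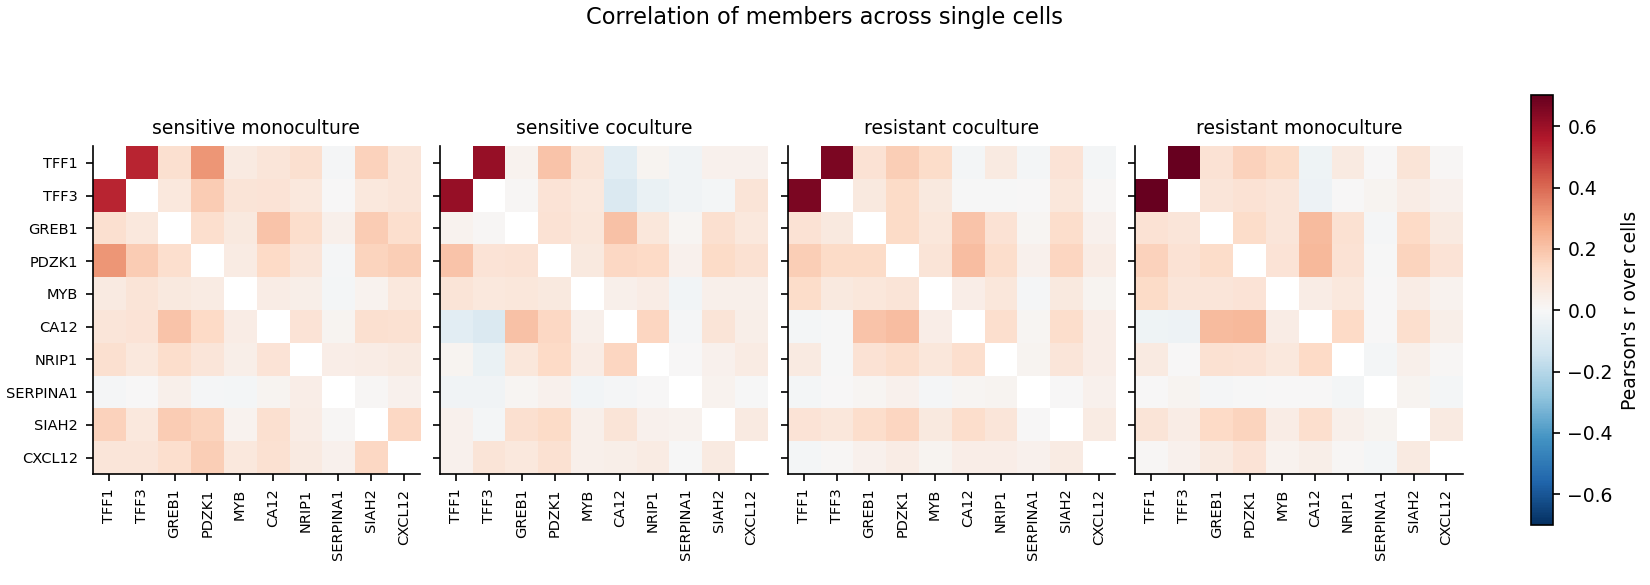
Pearson's r across the cells of each population for all pairs of the 10 genes, red above 0 and blue below. The TFF1 and TFF3 square is the darkest in each panel (0.54, 0.61, 0.66 and 0.69), and every other pair lies at 0.31 or below.

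The other members lie apart from the trefoil genes and, on GRCh37, from each other: GREB1 at chr2:11622467-11782914 (plus strand), PDZK1 at chr1:145726918-145764207 (plus strand), MYB at chr6:135502446-135540311 (plus strand), CA12 at chr15:63613577-63674045 (minus strand), NRIP1 at chr21:16333556-16438257 (minus strand), SERPINA1 at chr14:94843084-94857030 (minus strand), SIAH2 at chr3:150458912-150481264 (minus strand) and CXCL12 at chr10:44865613-44881941 (minus strand). The receptor cofactor GREB1 had 52.6 and 65.4 CPM in sensitive cells, alone and cocultured, and 56.1 and 57.3 CPM in resistant cells, cocultured and alone. Its log2 ratio was 0.31 in sensitive cells (counting interval of the rates 0.26 to 0.37), -0.03 in resistant cells, 0.12 between monocultures and -0.22 within coculture. The sensitive coculture was highest, and no difference reached 1.5-fold. NRIP1, which encodes the receptor's corepressor RIP140, was at 40.1, 38.0, 37.7 and 29.7 CPM in the same order. Several unnamed noncoding genes overlap NRIP1 over up to 53196 bases on its own strand and 21385 on the opposite strand, and reads shared with them could not be told apart. NRIP1 was lowest in resistant monoculture, with a log2 ratio of -0.42 between monocultures (-0.49 to -0.38) and 0.33 in resistant cells from coculture over monoculture (0.30 to 0.39), against -0.08 in sensitive cells.

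PDZK1, a scaffold of membrane transporters, was at 37.1, 50.1, 44.6 and 49.0 CPM in that order. In sensitive cells its log2 ratio of 0.42 was 0.37 in G1 but 0.06 in S and -0.16 in G2M, and between monocultures 0.39 overall became 0.57, -0.15 and -0.43. Sensitive monoculture cells in G1 had 33.5 CPM and those in S and G2M 52.8 and 66.0 CPM, over 2963, 176 and 190 cells, while resistant monoculture cells had 47.4 to 50.1 CPM in all phases. PDZK1 also correlated with total UMIs in sensitive monoculture (0.22), and in cells thinned to 5000 UMIs the ratio between monocultures became 0.63, past 1.5-fold. A pseudogene copy, PDZK1P1, lies at chr1:147466533-147481824 (GRCh37), and reads shared with it could not be told apart here.

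CA12, a carbonic anhydrase of the cell surface, stepped down over the populations, from 308 through 287 and 249.6 to 221 CPM, with no overlap of intervals. Resistant cells thus had less CA12 in either culture, with log2 ratios of -0.48 between monocultures and -0.20 within coculture, opposite in sign to TFF1. SIAH2, an E3 ubiquitin ligase, was at 64.8, 73.6, 63.6 and 62.3 CPM, and its ratios lay between -0.21 and 0.18. An antisense gene, SIAH2-AS1, overlaps 1541 bases of it, and an antisense gene also overlaps 913 bases of MYB. MYB, a transcription factor of the proto-oncogene class, was nearly level at 8.55, 9.04, 9.33 and 9.60 CPM. In sensitive monoculture MYB had only 41 UMIs in S and 34 in G2M, where the ratios of sensitive coculture over monoculture were 0.59 and 0.42 against 0.09 in G1. Between monocultures they were 0.64 and 0.85 against 0.02, past 1.5-fold in S and G2M on those few UMIs, and CA12 was at -0.61 in S.

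CXCL12, the chemokine ligand of CXCR4 and ACKR3, differed by lineage over whole populations. Sensitive cells had 6.70 CPM (6.19 to 7.24) alone and 8.35 CPM (7.69 to 9.05) cocultured, but resistant cells had 2.0 CPM (1.81 to 2.21) cocultured and 1.58 CPM (1.44 to 1.74) alone. The sensitive and resistant intervals were far apart in both cultures. The resistant over sensitive log2 ratio was -1.58 between monocultures and -1.64 within coculture, or -2.01 in each when 0.1 CPM was added in place of 1 CPM, and over the phases of both comparisons it ran from -1.90 to -1.48. The ratio within coculture was -1.72 after the correction for resistant-cell RNA. Some cells annotated as resistant reached the sensitive level, with 7.81 CPM (5.10 to 11.4) in the 91 coculture cells of cluster 3 and 6.47 CPM (3.23 to 11.6) in the 55 of cluster 13, on 26 and 11 UMIs, against 0.98 to 3.75 CPM in the other clusters. Cluster 3 also held sensitive cells of both cultures. Its 91 cells had the highest GREB1 and SIAH2 of the resistant coculture clusters of at least 50 cells (64.3 and 79.6 CPM). Whether they are mislabelled sensitive cells or doublets was not tested. Coculture over monoculture, the CXCL12 ratios were smaller, at 0.28 in sensitive and 0.21 in resistant cells, or 1.25-fold and 1.26-fold in CPM. The sensitive ratio was -0.04 in S cells. The CXCL12 receptors were low, CXCR4 at 1.49, 0.54, 0.09 and 0.07 CPM and ACKR3 at 0.09 to 0.30 CPM. SERPINA1, which encodes alpha-1 antitrypsin, had only 11, 20, 32 and 26 UMIs in the 4 populations (0.11, 0.28, 0.16 and 0.10 CPM), too few for a ratio in the sensitive cells or between the monocultures.

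Promoter windows of 300 bases, 250 before and 50 from the start site, were at hand from RefSeq on GRCh38.p14 for PDZK1, SIAH2, MYB, CXCL12, SERPINA1, CA12 and NRIP1, which matched 7 of the 10 symbols with 11 windows. TFF1, TFF3 and GREB1 had none in this table. The full estrogen response element (GGTCA, any 3 bases, then TGACC) was in 0 of the 11 windows and in 0.0570% of 35116 windows of all genes. Its core GGTCA, searched on both strands (also as TGACC) and contained in the full element, was in 7 of the 11 windows, from PDZK1, CXCL12, SERPINA1, CA12 and NRIP1, and in 37.4% of all windows. The PDZK1 windows overlap and hold the same core, which is thus counted in both. The windows are shown for PDZK1, whose ratios changed sign with phase, for CA12, lower in resistant cells where TFF1 was higher, and for CXCL12, the only member past 1.5-fold lower in resistant cells over whole populations. All are on the minus strand of that build, at chr1:145707351-145707650, chr15:63381797-63382096 and chr10:44385048-44385347, and capitals mark the core.
PDZK1: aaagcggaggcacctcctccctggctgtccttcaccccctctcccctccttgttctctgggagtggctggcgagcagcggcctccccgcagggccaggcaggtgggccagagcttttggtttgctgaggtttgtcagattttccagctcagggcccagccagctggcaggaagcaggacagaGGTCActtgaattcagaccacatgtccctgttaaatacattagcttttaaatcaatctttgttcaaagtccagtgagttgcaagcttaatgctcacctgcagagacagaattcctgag
CA12: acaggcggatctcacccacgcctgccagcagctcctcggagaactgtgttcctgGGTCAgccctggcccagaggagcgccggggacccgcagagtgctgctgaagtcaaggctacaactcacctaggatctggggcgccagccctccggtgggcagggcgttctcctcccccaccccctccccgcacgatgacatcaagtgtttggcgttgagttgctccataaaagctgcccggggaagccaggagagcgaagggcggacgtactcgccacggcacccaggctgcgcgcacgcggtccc
CXCL12: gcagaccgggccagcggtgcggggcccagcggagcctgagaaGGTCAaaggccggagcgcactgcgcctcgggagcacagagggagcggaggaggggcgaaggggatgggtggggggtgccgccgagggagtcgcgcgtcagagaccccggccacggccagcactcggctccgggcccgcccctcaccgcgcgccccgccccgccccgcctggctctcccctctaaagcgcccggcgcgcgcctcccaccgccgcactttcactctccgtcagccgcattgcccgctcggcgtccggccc
Each of these 3 windows held the core once, beginning 68, 196 and 208 bases before the start site. A match of these letters is not a measured binding site.

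In the annotation's clusters of resistant cells, TFF1 and TFF3 had their low values together (clusters of at least 50 cells of a population, made by the authors from the same cells' genes, so these values are a description). In resistant coculture TFF1 was at 1882 CPM in cluster 6 and 2101 in cluster 10, against 6356, 6404 and 4941 in the larger clusters 0, 1 and 2. In resistant monoculture clusters 6 and 10 had 1939 and 1820 CPM against 5169, 5122 and 4291. TFF3 was lowest in the same 2 clusters, at 135 and 102 CPM in coculture and 217 and 180 in monoculture, and highest in cluster 9, at 582 and 718 CPM. Clusters 6 and 10 thus had the lowest summed levels of both genes in either culture, with 507 and 145 cells in coculture and 576 and 148 in monoculture. These clusters differed in phase, with 58.0% and 52.6% of cluster 6 cells in G1 and 93.8% and 96.6% of cluster 10 cells in S.

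Sensitive monoculture cells lay mainly in clusters 4 (1945 cells), 8 (681), 3 (267), 7 (232) and 12 (156). TFF1 was at 1378 CPM in cluster 8 and between 1921 and 2157 CPM in the others, and TFF3 was at 187 CPM in cluster 12 against 57.5 to 100.5 CPM. PDZK1 marked a sharper split, at 7.25 CPM (5.95 to 8.75) in cluster 8 and 7.45 CPM (4.99 to 10.7) in cluster 12 but 40.5 to 61.1 CPM in clusters 3, 4 and 7. CXCL12 was low in the same clusters, at 3.13 and 1.80 CPM against 7.41 to 9.15, and SIAH2 was at 31.3 CPM in cluster 12 against 51.2 to 72.4. CA12 was highest in cluster 12 (386 CPM) and lowest in cluster 8 (232 CPM). More than 99% of the cells of clusters 8 and 12 were in G1, and their median UMI counts, 21423 and 24249, were below those of the other 3.

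Clusters 3, 4 and 7 held at least 50 sensitive cells of each culture, so levels could be set side by side. TFF1 was higher in coculture in all 3, at 4693, 3830 and 4365 CPM against 1949, 1981 and 1921 CPM, and TFF3 was at 418, 386 and 292 CPM against 82.1, 100.5 and 80.5 CPM. Among the 3 in coculture, TFF1 was lowest in cluster 4 and TFF3 in cluster 7. GREB1 was at 67.8, 65.9 and 63.5 CPM against 55.4, 56.7 and 53.5 CPM. PDZK1, higher in coculture over all sensitive cells, was at 49.8, 35.8 and 55.5 CPM in coculture against 58.0, 40.5 and 61.1 CPM in monoculture. Counting intervals of these small PDZK1 differences are not given, so their direction is not settled here. The sensitive coculture had fewer than 50 cells in clusters 8 and 12.

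**Figure D5:**
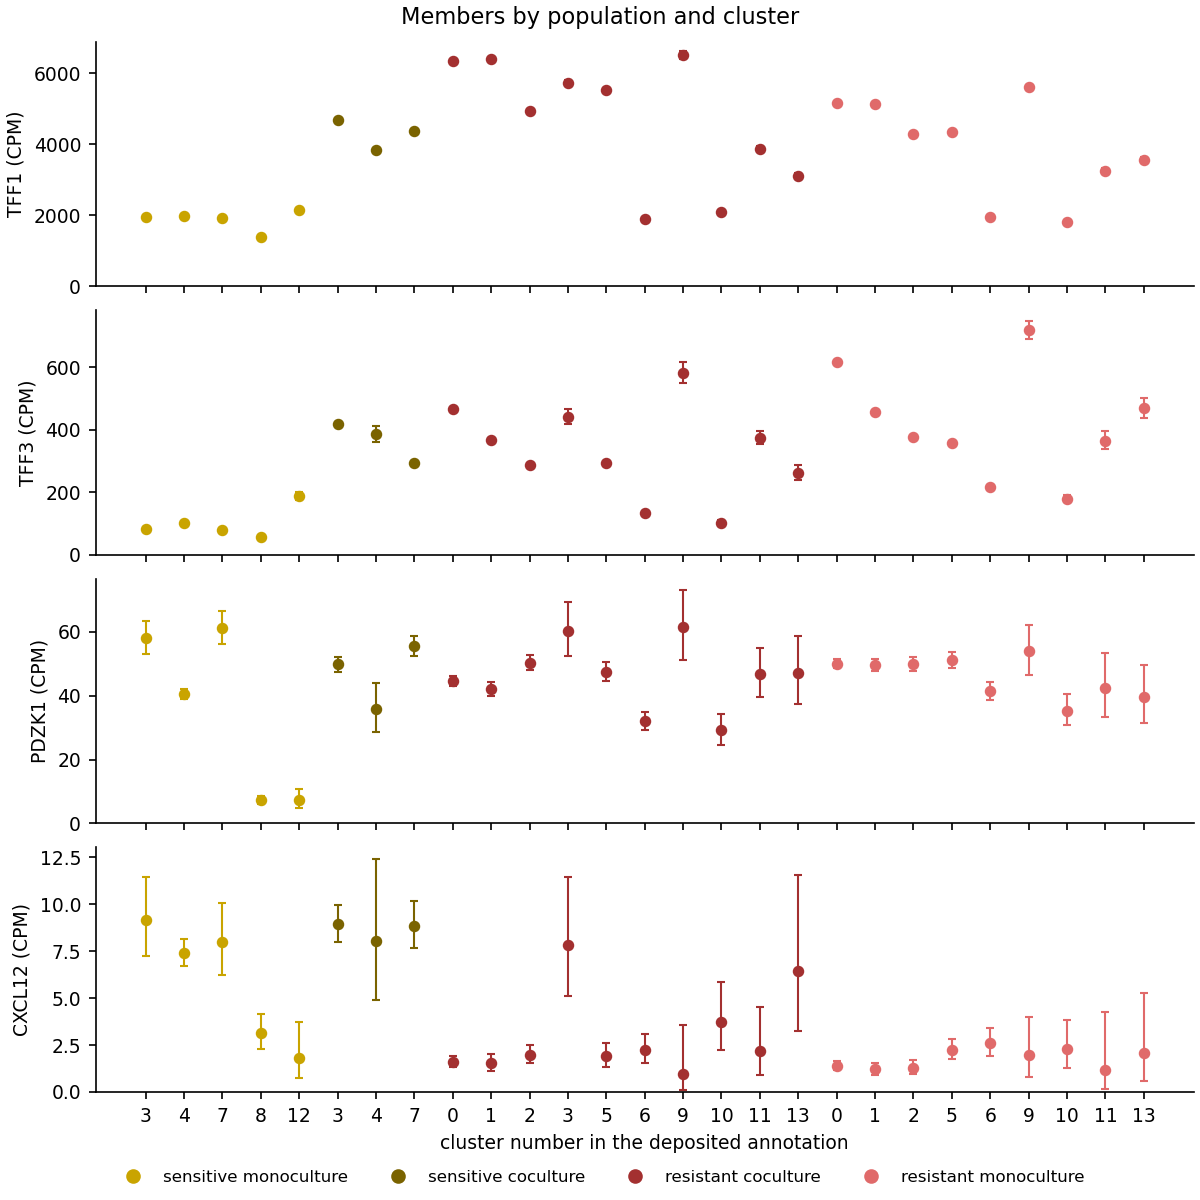
CPM of TFF1, TFF3, PDZK1 and CXCL12 by cluster number within each population (colours), with exact Poisson intervals, for clusters of at least 50 cells. Clusters 6 and 10 are low in TFF1 and TFF3 in both resistant populations, and clusters 8 and 12 of sensitive monoculture are low in PDZK1, at 7.25 and 7.45 CPM.

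By cell cycle phase, the log2 ratio of S or G2M over G1 lay between -0.10 and 0.09 for TFF1 in every population. TFF3 was lower outside G1, by -0.47 and -0.33 (G2M and S) in resistant cells of the coculture, -0.46 and -0.38 in those grown alone and -0.20 and -0.44 in cocultured sensitive cells. In sensitive cells alone TFF3 was lower in G2M (-0.22), while its S value of -0.04 (-0.16 to 0.08) was within counting error. CA12, NRIP1, GREB1 and SIAH2 together ranged from -0.28 to 0.19. MYB was lower outside G1 in sensitive monoculture, by -0.76 and -0.48 (G2M and S, on few UMIs), and in G2M of sensitive coculture, by -0.43, and lay between -0.03 and 0.14 elsewhere. PDZK1 was higher outside G1 in sensitive cells, by 0.96 and 0.64 in monoculture and 0.42 and 0.33 in coculture, but within -0.09 to 0.12 in resistant cells.

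A further 33 genes known for estrogen induction were read in the same way. In sensitive cells, coculture over monoculture, 5 were higher by 1.5-fold (PGR, AGR2, AGR3, KCNK5 and RAPGEFL1), 2 were lower (STC2 and HSPB8), and the median was 0.09, beside 5.13% higher and 5.91% lower and a median of -0.05 over all genes. PGR, the progesterone receptor, was at 14.6, 39.5, 23.3 and 22.5 CPM in the 4 populations, RAPGEFL1 at 3.15, 7.04, 7.90 and 6.94 CPM, and the secreted hormone STC2 at 163, 44.1, 32.5 and 19.9 CPM. Between the monocultures 7 of the 33 were higher and 10 lower in resistant cells, with a median of -0.09 (over all genes 6.66% higher, 12.5% lower and a median of -0.07), and the largest ratios were those of STC2 (-2.97), the fatty acid elongase ELOVL2 (-2.16) and the tau gene MAPT (-2.02). Within coculture 2 were higher and 9 lower, with a median of -0.19 (2.04%, 4.09% and 0.00 over all genes), and in resistant cells between cultures 1 was higher, STC2, and 0 were lower (0.669% and 0.0304%). AGR2, a protein folding factor of secretory cells, was at 171, 321, 121 and 176 CPM, so that it followed TFF3 between the sensitive populations but not between the monocultures, where its ratio was 0.04.

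Of 10 genes for estrogen receptors and their cofactors, 9 had enough UMIs in sensitive cells and 0 of these were past 1.5-fold between cultures, as were 0 of 10 in resistant cells, beside the shares over all genes of 5.13% higher and 5.91% lower and of 0.669% and 0.0304%. ESR1, the receptor itself, was at 15.7, 20.2, 17.3 and 14.2 CPM, with log2 ratios of 0.34 in sensitive cells, 0.27 in resistant cells, -0.14 between monocultures and -0.21 within coculture. The coactivator NCOA1 was at 7.32, 5.52, 3.88 and 3.71 CPM. Between monocultures TFAP2C was higher (0.63) and the coactivators NCOA1 (-0.82) and NCOA3 (-0.67) were lower in resistant cells, counts near the 6.66% and 12.5% over all genes. Within coculture TFAP2C alone was past the limit (0.68), where 2.04% of all genes were higher and 4.09% lower.

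The genes around TFF1 and TFF3 on chromosome 21 were read for the same comparisons. Of 12 neighbours, 11 had enough UMIs in sensitive cells, of which 0 were higher and 1 was lower in coculture (SLC37A1, -0.85), with ZBTB21 at -0.48, C2CD2 at -0.39 and a median of -0.20, so the counts were near the 5.13% and 5.91% over all genes. Between monocultures 1 was higher and 4 were lower in resistant cells, beside 6.66% and 12.5% over all genes. TMPRSS3, a membrane protease next to TFF1 at chr21:43791996-43816200, was at 64.0, 49.1, 10.7 and 7.99 CPM, opposite in direction to TFF1 with a ratio of -2.85. TFF2, between the trefoil members, was at only 0.62, 0.71, 2.45 and 2.40 CPM, higher in resistant cells (1.06 between monocultures and 1.02 within coculture) but at 0.07 in sensitive cells between cultures. SLC37A1 had 14.9, 7.79, 5.73 and 6.21 CPM.

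Relatives and partners of the members were read alongside. MYBL2, a MYB family gene of dividing cells, was at 20.04, 73.4, 75.9 and 77.1 CPM, with a ratio of 1.82 in sensitive cells and 1.89 between monocultures, while the summed S phase list was at 708, 1228, 1270 and 1273 CPM in the same populations. MYBL1 was at 44.03, 57.1, 43.7 and 36.9 CPM. CA2, a cytosolic carbonic anhydrase, was at 6.94, 7.87, 18.3 and 23.2 CPM, higher in resistant cells where CA12 was lower, and CA9 was at 0 to 0.04 CPM. SIAH1 was at 20.3, 16.97, 19.1 and 16.7 CPM. SLC9A3R1, a PDZ scaffold like PDZK1, was at 569, 636, 654 and 590 CPM. The SERPINA1 relatives SERPINA3, SERPINA5 and SERPINA6 were at 0.17 CPM or less.

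Over the 12 combinations of population and phase, which share 3 libraries, TFF1 and TFF3 correlated at 0.94 in log2(CPM + 1), and TFF1 ranked 3rd of 4687 genes for TFF3 after SCD (0.95) and CELSR2 (0.94). The genes nearest to TFF1 were the ribosomal protein genes RPL37 (0.99), RPL34 and RPS27 (0.98 each), and TFF3 ranked 19th. CXCL12 was nearest to the transgene mVenus (0.99) and to HADHA and RXYLT1 (0.98 each). Since mVenus marks the sensitive lineage, by which the populations are divided, its value restates the lineage difference of CXCL12 given above. CA12 stood closest to WASHC4 (0.98), MCM3AP and FABP7 (0.97 each) and was at -0.70 with TFF1 and -0.74 with TFF3. For NRIP1 the nearest were USP22, NCKAP1 and UBE2W (0.96 each), for PDZK1 WDR77 (0.88), NOB1 (0.85) and SWI5 (0.84), for MYB TYMP (0.90), DCAF6 (0.89) and MYH14 (0.88), for SIAH2 FIBCD1 (0.90), SULT1A1 (0.88) and AFF3 (0.85), and for GREB1 SORT1 (0.81), PDLIM7 and RPL6 (0.79 each). SERPINA1, on few UMIs, was nearest to BCL3 (0.87), GREB1 and SHC1 (0.83 each).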

How the data were processed

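CAMA-1 spheroids were dissociated and sequenced as 3 single-cell libraries, 1 per condition. The authors processed the reads with Cell Ranger 3.0.2 on GRCh37, per the labels, and deposited raw UMI counts for each gene in each barcode. Their deposited annotation gives each kept cell's UMI count, mitochondrial percent, phase, cluster and population, and 12 further columns were not used. Cells were grouped as annotated there. Rows with no symbol (0.523% to 0.591% of UMIs by library) were left out, after which totals differed from the authors' counts by at most 6 UMIs per cell. The libraries held 173405094, 519475237 and 359599734 UMIs in 8643, 20227 and 11502 barcodes (sensitive monoculture, coculture and resistant monoculture), of which 3329, 8351 and 7557 were kept cells.

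UMIs were summed per population and expressed as CPM, and log2 ratios were taken with 1 CPM added over genes with at least 50 UMIs. With 1 library per condition no test was run, and a ratio past 1.5-fold is called higher or lower. Poisson and binomial (Clopper-Pearson) intervals are exact at 95%. Intervals given with ratios are those of the rates, without the added CPM. Correlations use ln(1 + 10000 × UMIs / total). No doublet caller was run here, and cells of at most 45000 UMIs were an alternative. Other alternatives were the added CPM, scaling (TMM factors, edgeR 4.0.16 in R 4.3.3, or totals without mitochondrial and ribosomal protein genes), transgene and UMI minimums, phases, thinning to 5000 UMIs, means over cells and a correction for resistant-cell RNA. The limit on mitochondrial percent was added after seeing the data. Positions are from GENCODE 44 lifted to GRCh37. Ratios and correlations were tested on simulated data, and thinning on measured cells of sensitive coculture. Python 3.11.15, numpy 2.4.6, scipy 1.17.1 and matplotlib 3.10.9 were used.

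The 10 members and all gene lists were chosen with earlier results of these data known. Beyond the members, the genes named are the 3 with the largest absolute ratio of each list in sensitive cells and between monocultures, all relatives and partners, and the 3 most alike to each member over populations and phases. A gene named by this rule is not reported here. Genes past 1.5-fold that a count names, the top genes over single cells and AGR2 were named after their values were seen.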

Additional observations from a re-analysis of the deposited data

Results flagged for a closer look

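In 4 of the 9 members with at least 50 UMIs in both comparisons, the coculture over monoculture log2 ratio had one sign in sensitive cells and the other in resistant cells, beyond counting error in each. The same held for 21.8% of 12244 genes, whatever the size of the ratios, so opposite signs were common. The difference itself was not tested, since each condition had 1 library. TFF3 had a ratio of 2.0 in sensitive and -0.41 in resistant cells, with both signs the same in G1, S and G2M. The ratio of PDZK1 was 0.42 in sensitive and -0.13 in resistant cells, and the former turned to -0.16 in G2M. CA12 was at -0.10 and 0.17, and NRIP1 at -0.077 and 0.33, where the sensitive value of NRIP1 turned to 0.03 in S and 0.07 in G2M.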

How the results depend on the processing

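The counts of members past 1.5-fold and the member medians were recomputed as 108 values under the alternatives. Of these, 99 stayed within 1.5 times the reported count or within the counting error of the middle member for the median. In sensitive cells the member median moved from 0.28 to 0.063 in S cells alone. Between monocultures, where it was 0.12, it was 0.23 with TMM scaling, 0.048 with no UMI minimum, 0.019 in G1, -0.15 in S, -0.088 in G2M, 0.0080 after thinning to 5000 UMIs and 0.074 at a mitochondrial share of at most 20%, so its sign depends on phase. The count past 1.5-fold between monocultures went from 3 to 5 in S cells, where MYB (0.64) and CA12 (-0.61) joined. Smaller moves were from 3 to 4 in G2M and after thinning and to 2 with 10 CPM added, and in sensitive cells from 2 to 3 in S. The share of all genes past 1.5-fold was not computed under these alternatives, so the counts have no background beside them. The cause was not tested.

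TFF1 and TFF3 stayed past 1.5-fold in the same direction under all alternatives, from 1.09 to 1.43 and 1.73 to 2.15 in sensitive cells and from 1.12 to 1.41 and 2.20 to 2.53 between monocultures. CXCL12 was from -2.01 to -0.53 between monocultures, short of the limit with 10 CPM added, and from -2.01 to -0.61 within coculture. Of 418 values for members not past the limit, 5 went past it and 24 changed sign. Shares of cells and correlations moved in 80 of 100 alternatives, thinning among them. With 1 library per condition no value has a replicate check, and for MYB, CXCL12 and SERPINA1 few UMIs limit the precision. No paired analysis was possible because each condition has 1 library.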
